A study of Mus musculus with 18 samples.

Results

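The homeostatic microglia identity genes described here are Tmem119, Sall1, Siglech, Gpr34, Olfml3, Fcrls, Crybb1, Sparc and Slc2a5. They were chosen by name, and each of the 9 symbols was found on exactly 1 of the 53465 gene rows of the deposited count table. Microglia and macrophages were sorted from the contused spinal cord of adult female C57BL/6J mice aged 8 to 10 weeks. The mice received PBS, rIL-13 or rIL-4 (100 ng of cytokine) by intraspinal injection 48 h after SCI, and the cells were taken 24 h later. Mice 1, 2 and 3 received PBS, mice 5, 6 and 7 received rIL-13, and mice 8, 9 and 10 received rIL-4. Each mouse gave 1 microglia library (CD45low, CD11b+, F4/80+) and 1 macrophage library (CD45high, CD11b+, F4/80+), which makes 18 libraries in 6 groups of 3. Every mouse was injured and injected, and no uninjured cord was included, so the PBS level is the level in injured tissue and not in a healthy cord. The recombinant cytokines were not targeted to either cell type.

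Microglia are the resident macrophages of the central nervous system. Their resting identity is maintained by signals from the tissue, among them TGF-β and ligands of the CSF1 receptor, acting with lineage factors such as PU.1, and it is weakened by injury and by culture. Macrophages that enter the cord from blood monocytes largely lack this programme, and IL-4 and IL-13 both signal through a receptor that holds IL-4Rα and activates STAT6. Among the 9 genes, Sall1 encodes the zinc finger transcription factor most closely tied to microglia identity. Tmem119, Siglech, Gpr34 and Fcrls encode surface proteins, namely a transmembrane protein used as a microglia marker, a sialic acid-binding lectin, a receptor for lysophosphatidylserine and an Fc receptor-like protein. Slc2a5 encodes the fructose transporter GLUT5. Olfml3 and Sparc encode secreted proteins of the extracellular matrix, and Crybb1 encodes a crystallin first known from the lens.

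The libraries held 35961305 to 45849829 counts each. Sequencing depth therefore limited only the lowest values, such as Crybb1 in rIL-4 macrophages with 9, 4 and 2 counts in the 3 mice. Levels are given as CPM, the counts of a gene scaled to the size of its library, after TMM scaling over all 18 libraries, with SD over the 3 mice, and a gene is called when its adjusted p from edgeR's quasi-likelihood test is below 0.05. The share of counts from the 13 mitochondrially encoded protein genes differed between the groups. In microglia it was 2.178 to 3.006% with PBS, 3.277 to 3.529% with rIL-13 and 6.355 to 12.19% with rIL-4, and in macrophages it was 0.5321 to 0.7449%, 0.6035 to 0.7129% and 0.8364 to 1.414%, so that the rIL-4 libraries were above all PBS libraries in both cell types. Its part in the results was not tested. In sorted bulk RNA, fewer cells that express a gene and less of its RNA per cell cannot be told apart.

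In PBS microglia all 9 genes were well expressed, but over a wide range. Per kilobase of exon, Fcrls was highest at 590.1 ± 176.8 CPM per kb (SD, n = 3), followed by Sparc at 489.1 ± 136.4. Tmem119 at 232.7 ± 60.94, Olfml3 at 231.1 ± 57.61 and Gpr34 at 144.1 ± 42.51 CPM per kb formed an intermediate level. Siglech reached 62.05 ± 32.94, Crybb1 19.28 ± 6.322, Slc2a5 14.36 ± 5.971 and Sall1 9.494 ± 4.54 CPM per kb. The libraries of neighbours in this order overlapped within Fcrls and Sparc, within Tmem119, Olfml3 and Gpr34, and within Crybb1, Slc2a5 and Sall1, and did not overlap between these sets and Siglech. The surface protein Fcrls and the matrix protein Sparc thus headed this order. The median coefficient of variation of the 9 genes between PBS microglia libraries was 29.96%, against 20.15% over 13018 genes, and between PBS macrophages it was 43.16% against 13.75%. In rIL-4 microglia the values lay closer together, 32.9% against 28.83%. In rIL-13 microglia they were 54.54% against 29.08%. In macrophages they were 41.56% against 17.37% with rIL-13 and 41.33% against 16.94% with rIL-4.

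**Figure D1:**
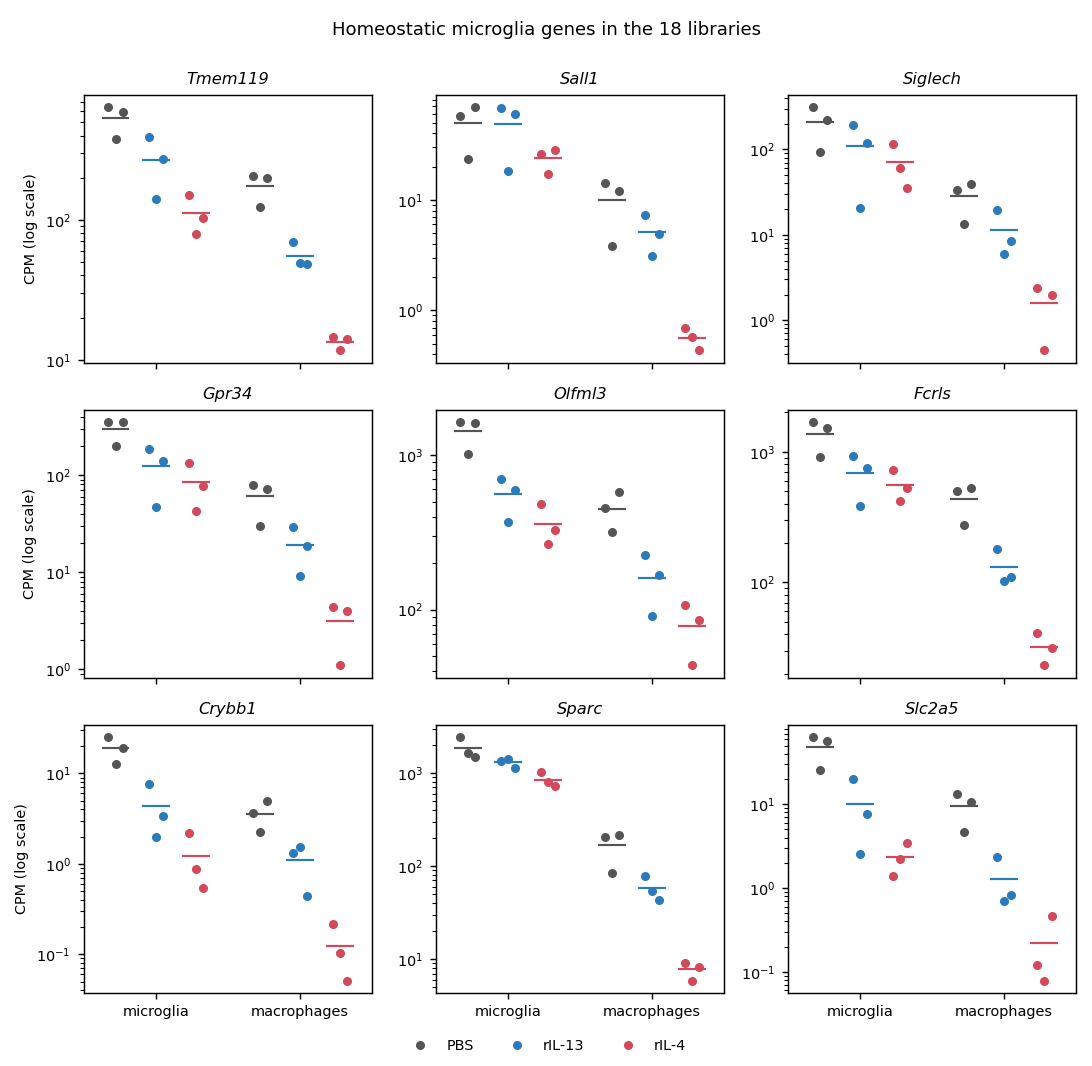
CPM of each of the 9 homeostatic microglia genes in every library, on log axes that differ between panels. Each point is 1 mouse, the horizontal bar is the group mean, and colours mark PBS, rIL-13 and rIL-4. The rIL-4 macrophages form the lowest group for all 9 genes, and rIL-13 mouse 6 is the lowest rIL-13 microglia library for all except Sparc.

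The first question was whether rIL-4 changed the resting identity of microglia. All 9 genes had a lower fitted level with rIL-4 than with PBS, and 5 of them fell significantly, namely Tmem119, Olfml3, Crybb1, Sparc and Slc2a5. Of all 15566 genes tested, 0.887% were called lower and 2.22% were called in either direction. The median log2 fold change of the 9 genes was -1.80, and that of all genes tested was -0.06.

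Slc2a5 and Crybb1 fell furthest. Slc2a5 measured 63.6, 25.7 and 57.3 CPM in PBS mice 1, 2 and 3, and 1.40, 2.22 and 3.48 CPM in rIL-4 mice 8, 9 and 10. The groups were far apart, and the rIL-4 mean was 4.843% of the PBS mean (log2 fold change -4.35, standard error 0.76, adjusted p = 0.0218, edgeR). Crybb1 measured 25.2, 12.8 and 18.9 CPM with PBS and 2.20, 0.880 and 0.544 CPM with rIL-4. Its rIL-4 mean was 6.356% of the PBS mean, again without overlap (log2 fold change -3.95, standard error 0.73, adjusted p = 0.0268, edgeR). These were also genes of low abundance, with 56 to 128 counts for Slc2a5 and 20 to 88 counts for Crybb1 in the rIL-4 libraries.

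Tmem119 and Olfml3, both abundant, fell to 20.62% and 25.04% of the PBS mean. Tmem119 was at 643.5, 378 and 594 CPM with PBS and at 151, 79.1 and 103 CPM with rIL-4, and every rIL-4 library was below every PBS library (log2 fold change -2.26, standard error 0.39, adjusted p = 0.0218, edgeR). Olfml3 was at 1638, 1014 and 1620 CPM with PBS and at 479, 264 and 327 CPM with rIL-4, again without overlap (log2 fold change -1.97, standard error 0.31, adjusted p = 0.0157, edgeR). Sparc had the smallest fall among the called genes. Its levels of 2442, 1638 and 1478 CPM with PBS gave way to 1017, 793.7 and 730.3 CPM with rIL-4, so that the remaining 45.7% still made it the most abundant of the 9 genes in CPM (log2 fold change -1.10, standard error 0.21, adjusted p = 0.0308, edgeR).

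The other 4 genes did not pass the test in microglia. Gpr34 (log2 fold change -1.80, standard error 0.54, adjusted p = 0.137, edgeR) and Fcrls (-1.28, standard error 0.36, adjusted p = 0.116) nevertheless had every rIL-4 library below every PBS library. Gpr34 measured 353, 199 and 352 CPM with PBS against 135, 42.4 and 78.1 CPM with rIL-4. Siglech and Sall1 overlapped between the groups. Siglech ranged from 94.4 to 317 CPM with PBS and from 35.7 to 116 CPM with rIL-4 (log2 fold change -1.55, standard error 0.74, adjusted p = 0.345, edgeR). Sall1 ranged from 23.4 to 69.6 CPM with PBS and from 17.2 to 28.1 CPM with rIL-4 (log2 fold change -1.05, standard error 0.51, adjusted p = 0.353, edgeR). For both genes PBS mouse 2 was the low library. In all, 7 of the 9 genes separated the groups fully in the lower direction, as did 14.9% of all genes tested.

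The count of 5 rested on single mice. Leaving out the microglia library of mouse 1, 3 or 10 left 0 genes called, leaving out mouse 9 left 1 and leaving out mouse 2 left 3, while all 9 fold changes stayed negative in every such fit. DESeq2 called 7, adding Gpr34 and Fcrls, where it called 9.53% of all genes.

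With rIL-13 edgeR called 0 of the 9 genes in microglia. All 9 fitted changes against PBS were negative, with a median of -0.99 on the log2 scale against 0.00 over all genes, and 7 had an unadjusted p below 0.05, as did 7.76% of all genes. DESeq2 called 3, Olfml3, Crybb1 and Slc2a5, where it called 2.54% of all genes. Among all genes, edgeR called 0.366% in either direction and 0.0835% lower. Slc2a5 measured 20.0, 2.52 and 7.75 CPM in rIL-13 mice 5, 6 and 7 (log2 fold change -2.26, standard error 0.69, adjusted p = 0.387, edgeR). Olfml3 measured 699.9, 369 and 598 CPM (log2 fold change -1.35, standard error 0.31, adjusted p = 0.179, edgeR). Both genes had all their rIL-13 libraries below all PBS libraries, as did Gpr34, Crybb1 and Sparc. This makes 5 of 9, against 8.94% of all genes.

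Sall1 had the fitted change nearest to 0 with rIL-13. Its levels of 67.5, 18.3 and 59.3 CPM overlapped the PBS levels, and the fitted change was -0.04 on the log2 scale with a standard error of 0.51 (adjusted p = 1.00, edgeR). The sign of this small value depended on single libraries, and it was 0.35 without rIL-13 mouse 6. That mouse had the lowest rIL-13 microglia level of every gene except Sparc. Its Siglech level was 20.8 CPM, against 193 and 119 CPM in mice 5 and 7, and its Gpr34 level was 47.3 CPM, against 186 and 141 CPM. Sparc, at 1426 CPM, was instead highest in mouse 6. The same library held the highest summed level of 12 fibroblast and pericyte markers, 8261 CPM, against 1945 and 1343 CPM in mice 5 and 7, and the part of these cells in its values was not tested. Without this library edgeR still called 0 of the 9 genes in this comparison.

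The cytokines were also compared directly in microglia. All 9 fitted changes of rIL-4 against rIL-13 were negative (median log2 fold change -0.64, all genes -0.02), from -0.28 for Fcrls to -2.08 for Slc2a5, and edgeR called 0 of them. Of the 9, 4 had an unadjusted p below 0.05, against 11.4% of all genes, and DESeq2 called Tmem119 and Slc2a5, where it called 4.79% of all genes. The comparison called few genes of any kind, 0.0385% of all those tested, each of them lower. Sparc alone among the 9 genes had libraries that did not overlap, at 1344, 1426 and 1145 CPM with rIL-13 and 1017 CPM or less with rIL-4, where 6.67% of all genes showed full separation in that direction. With standard errors of 0.21 (Sparc) to 0.73 (Siglech) on the log2 scale, the missed calls do not show that the cytokines acted alike on these genes.

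**Figure D2:**
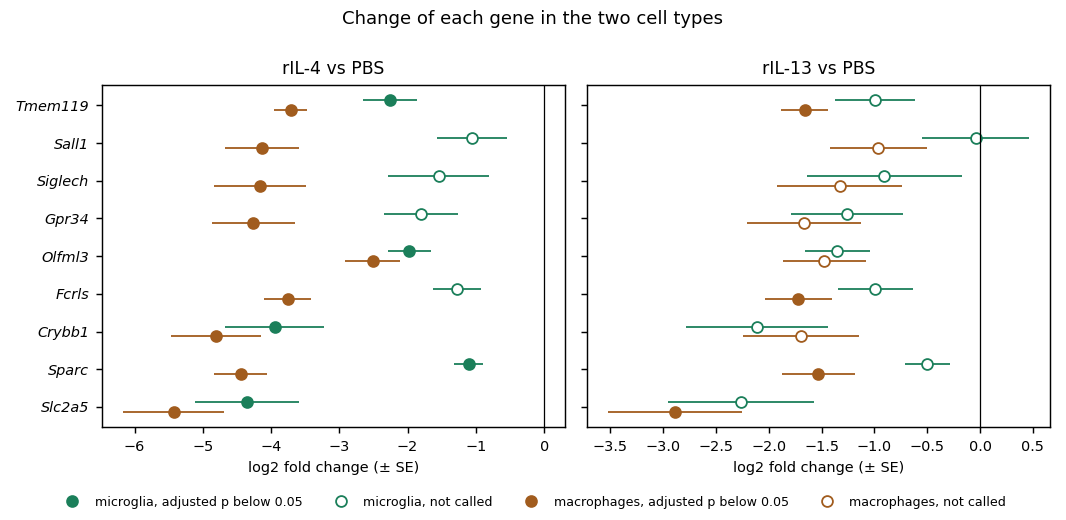
Log2 fold change of each gene against PBS, with its standard error from edgeR, in microglia (green) and macrophages (brown), for rIL-4 on the left and rIL-13 on the right, whose horizontal scales differ. Filled points have an adjusted p below 0.05. With rIL-4, all 9 genes in macrophages and 5 in microglia are filled, and with rIL-13, 4 in macrophages and none in microglia.

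In macrophages the 9 genes were present as a trace. With PBS each was significantly higher in microglia than in macrophages, by 1.58 (Tmem119) to 3.41 (Sparc) on the log2 scale, in a comparison in which 24.5% of all genes were called higher in microglia. Tmem119 in PBS macrophages measured 207, 123 and 198 CPM in mice 1, 2 and 3, and Fcrls 499, 274 and 525 CPM. Sall1 was low at 14.2, 3.81 and 12.1 CPM. For all 9 genes the macrophages of PBS mouse 2 were the lowest of the PBS macrophages, and this was the mouse with the lowest PBS microglia level for 8 of the 9, Sparc being the exception. In the paper's flow cytometry, rIL-13 and rIL-4 each raised macrophage numbers in the injured cord, while microglia numbers did not change. The part of microglia sorted among the macrophages in this trace, and in its changes with treatment, was not tested.

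This trace fell steeply with rIL-4, and all 9 genes were called lower against PBS. The median log2 fold change was -4.16, against 0.02 over all genes. The share of all genes called lower was 7.2%, and 14% were called in either direction. Slc2a5 and Crybb1 again fell furthest, with log2 fold changes of -5.43 (standard error 0.74, adjusted p = 0.00124, edgeR) and -4.81 (standard error 0.66, adjusted p = 0.00131), to 3 to 18 counts and 2 to 9 counts per library. Sparc followed. Its macrophage levels of 205, 85.0 and 217 CPM with PBS became 9.18, 5.87 and 8.17 CPM with rIL-4 (log2 fold change -4.45, standard error 0.39, adjusted p = 0.000111, edgeR).

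All 4 surface molecules were among the genes that fell. The log2 fold change was -4.26 for Gpr34, -4.16 for Siglech, -3.76 for Fcrls and -3.71 for Tmem119, with adjusted p from 1.87e-05 (Tmem119) to 0.00300 (Siglech) in edgeR. Tmem119 was at 14.5, 11.7 and 14.0 CPM in the 3 rIL-4 macrophage libraries, a narrow range far below PBS. Sall1 fell by 4.14 (standard error 0.54, adjusted p = 0.000951, edgeR) to between 17 and 29 counts. Olfml3 fell least, from 455, 315.5 and 578 CPM to 108, 43.5 and 85.1 CPM (log2 fold change -2.51, standard error 0.41, adjusted p = 0.00291, edgeR). Every gene had all rIL-4 libraries below all PBS libraries, 9 of 9 against 17.5% of all genes. All 9 calls also held without any 1 macrophage library. When only genes with at least 10 counts in every macrophage library were tested, Crybb1 and Slc2a5 were no longer tested and the other 7 were called.

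rIL-13 lowered the macrophage trace less far. Of the 9 genes 4 were called against PBS, Slc2a5 (log2 fold change -2.89, adjusted p = 0.0328, edgeR), Fcrls (-1.72, adjusted p = 0.0149), Tmem119 (-1.66, adjusted p = 0.00333) and Sparc (-1.53, adjusted p = 0.0377). Among all genes 1.66% were called lower and 4.19% in either direction. Tmem119 measured 69.0, 49.3 and 48.2 CPM in mice 5, 6 and 7, below every PBS macrophage library. The other 5 genes had log2 fold changes from -0.96 (Sall1) to -1.70 (Crybb1), and in all 7 of the 9 genes separated the groups fully, against 12.1% of all genes. Tmem119 alone was called in every fit that left out 1 library. Leaving out mouse 1, 3 or 7 left 1 call, and leaving out mouse 6 left 2.

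Between the cytokines, all 9 fitted levels were lower in the rIL-4 than in the rIL-13 macrophages, and 4 of these genes differed significantly. These were Sall1 (log2 fold change -3.17, adjusted p = 0.0455, edgeR), Sparc (-2.92, adjusted p = 0.0201), Tmem119 (-2.05, adjusted p = 0.0158) and Fcrls (-2.04, adjusted p = 0.0415). Only 0.25% of all genes were called in this comparison and 0.22% were called lower. The median over the 9 genes was -2.60, against 0.00 for all genes. All except Olfml3 had no overlap between the cytokines, 8 of 9 against 7.08% of all genes. These calls were fragile. No call remained when mouse 8, 9 or 10 was left out, 1 remained when mouse 5 was left out, and 2 remained when mouse 1, 3 or 7 was left out. The count rose to 8 in DESeq2, which called 2.63% of all genes, and in edgeR with every gene that had any count, where that share is not given.

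Because each mouse gave both cell types, the trace can be expressed as the macrophage level in percent of the microglia level of the same mouse. With PBS the median over the 9 genes was 22.5, 17.4 and 20.3% in the 3 mice, with rIL-13 it was 15.6, 26.4 and 13.2%, and with rIL-4 it was 5.64, 3.53 and 5.99%. The rIL-4 mice were thus below all others, while the PBS and rIL-13 mice overlapped. Fcrls went from 31.3 ± 2.71% with PBS to 20.2 ± 5.90% with rIL-13 and 5.71 ± 0.259% with rIL-4 (SD, n = 3). Sparc was the gene with the lowest trace in each treatment, at 9.42 ± 4.83%, 4.45 ± 1.13% and 0.921 ± 0.190%. Sall1 went from 19.5 ± 4.66% to 12.1 ± 4.55% and 2.51 ± 0.898%. Olfml3 kept the highest trace with rIL-4, 21.7 ± 4.82%, not far from its 31.5 ± 3.97% with PBS. The rIL-13 value of Crybb1 reached 78.8% in mouse 6, from 53 counts in macrophages and 94 in microglia.

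**Figure D3:**
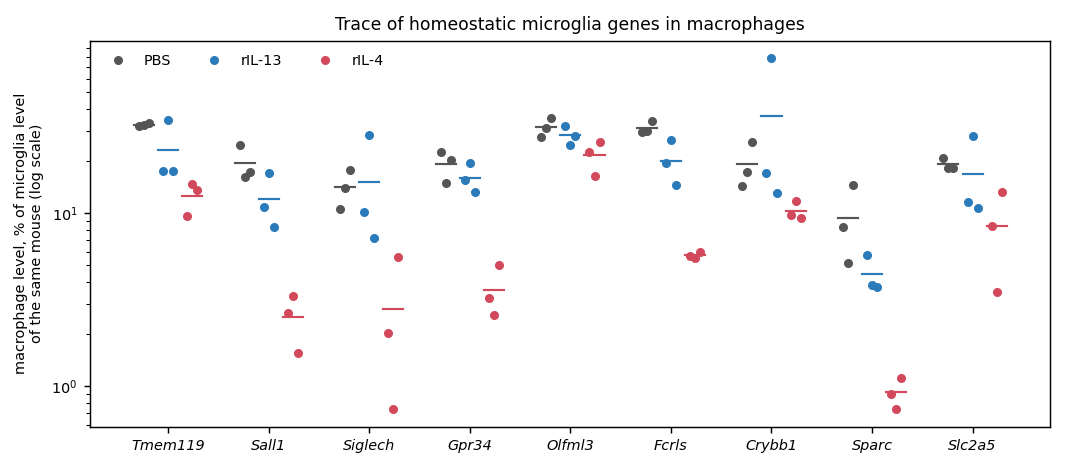
Macrophage level of each gene in percent of the microglia level of the same mouse, on a log axis. Points are mice, bars are means of 3 mice, and colours mark the treatment. The rIL-4 mice lie below all PBS mice for each gene, with the widest gaps for Sparc, Sall1, Gpr34 and Fcrls and the narrowest for Olfml3.

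Expressed as a test, the fall with rIL-4 against PBS was larger in macrophages than in microglia for Sparc and Fcrls. The difference of the log2 fold changes, microglia minus macrophages, was 3.32 for Sparc (standard error 0.45, adjusted p = 0.00220, edgeR) and 2.46 for Fcrls (standard error 0.51, adjusted p = 0.0315). For all 9 genes the difference was positive, with a median of 2.44 against -0.02 over all genes, and 0.49% of all genes were called in that direction. Sall1 (3.06, standard error 0.78, adjusted p = 0.0760) and Gpr34 (2.44, standard error 0.83, adjusted p = 0.207) were not called in this fit. Olfml3 had the smallest difference, 0.52 (standard error 0.53, adjusted p = 0.827, edgeR). With the mouse as a replicate block, which pairs the cell types, 5 genes were called, Sparc (adjusted p = 0.00270), Fcrls (0.00122), Gpr34 (0.00308), Sall1 (0.00578) and Tmem119 (0.0423), where 0.738% of all genes were called in that direction. The Sparc call held without any 1 mouse (adjusted p = 0.00137 to 0.0368), and the Fcrls call was lost without mouse 1, 2, 3, 7, 8, 9 or 10, where 1 gene remained called.

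For rIL-13 against PBS no gene differed between the cell types by edgeR, with or without the block, and none by DESeq2, which called 1.1% of all genes. The differences ranged from -0.43 (Crybb1) to 1.03 (Sparc, adjusted p = 0.761), 1 of the 9 had an unadjusted p below 0.05, against 5.83% of all genes, and 0.00605% of all genes were called in the positive direction. For rIL-4 against rIL-13 all 9 differences were positive (median 1.73). None was called in the fit without the block, where Sparc had an adjusted p of 0.0566 (2.29, standard error 0.44, edgeR) and 4 genes an unadjusted p below 0.05, against 10% of all genes. With the replicate block 2 were called, Gpr34 and Fcrls (both adjusted p = 0.0444), and DESeq2 called 2, Fcrls and Sparc, where it called 2.07% of all genes. Of all genes 0.0665% were called in the positive direction without the block and 0.0363% with it.

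The distance between the cell types was correspondingly greatest with rIL-4. Sparc was higher in rIL-4 microglia than in rIL-4 macrophages by 6.80 on the log2 scale, Siglech by 5.48 and Sall1 by 5.41, and 8 of the 9 genes were called, where 13.4% of all genes were called higher in microglia. Crybb1 was not called (3.28, standard error 1.01, adjusted p = 0.0532, edgeR), and Slc2a5 was no longer called with the replicate block (adjusted p = 0.0662). With rIL-13, 8 genes were called, again without Crybb1 (adjusted p = 0.0908), where 17.2% of all genes were called higher in microglia. That count fell to 1, Sparc, without mouse 7.

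The 9 genes varied together across libraries. Over the 9 macrophage libraries the 36 pairs had a median Pearson correlation of log2 CPM of 0.957 (0.874 to 0.995), and over the 9 microglia libraries of 0.858 (0.436 to 0.985). These are descriptions, since the libraries of 1 treatment share that treatment. Among the 5 genes with the profile most like the mean of the 9 in microglia were Cx3cr1 (r = 0.998), C1qc (0.984), Arsb (0.980) and Selplg (0.974), out of 8252 genes. In macrophages they were Golm1 (0.989), Cx3cr1 (0.989), Arsb (0.989), Htra3 (0.987) and Hpgds (0.984), among 7573 genes. Cx3cr1, the fractalkine receptor, and Arsb, a lysosomal sulfatase, appeared in both.

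As the genes varied together, their promoters were searched for letters bound by factors of this lineage and of the cytokine pathway. RefSeq promoter windows of 300 bases (GRCm38.p6, 250 before to 50 after the start) were found for 7 of the 9 genes, 9 windows in all. On both strands, the PU.1 letters GAGGAAGT matched in 0 of them (3.2% of 32851 windows genome-wide), the ETS-IRF letters GGAANNGAAA in 0 (2.72%) and the SMAD letters GTCTAGAC in 0 (0.213%). The STAT6 letters TTCNNNNGAA matched in 1 (6.95%), the second window of Sall1, from base 244 to base 253. These searches describe letters in short windows and say nothing of binding. The upstream bases outside annotated exons are shown for the gene that fell furthest (Slc2a5) and for the window with the match (Sall1). They are also shown for the gene that kept most of its macrophage trace with rIL-4 (Olfml3). Each sequence runs 5′ to 3′ on the strand of the gene, with the STAT6 letters in capitals.
Slc2a5, chr4:150119094-150119282, plus strand: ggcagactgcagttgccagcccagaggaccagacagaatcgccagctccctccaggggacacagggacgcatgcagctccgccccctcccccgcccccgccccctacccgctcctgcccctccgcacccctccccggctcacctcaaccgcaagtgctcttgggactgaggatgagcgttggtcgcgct
Olfml3, chr3:103738002-103738251, minus strand: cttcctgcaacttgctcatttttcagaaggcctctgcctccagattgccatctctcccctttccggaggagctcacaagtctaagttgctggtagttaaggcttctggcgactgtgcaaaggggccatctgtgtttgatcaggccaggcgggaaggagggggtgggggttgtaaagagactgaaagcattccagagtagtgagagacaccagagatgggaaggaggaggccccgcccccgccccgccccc
Sall1, chr8:89043510-89043762, minus strand: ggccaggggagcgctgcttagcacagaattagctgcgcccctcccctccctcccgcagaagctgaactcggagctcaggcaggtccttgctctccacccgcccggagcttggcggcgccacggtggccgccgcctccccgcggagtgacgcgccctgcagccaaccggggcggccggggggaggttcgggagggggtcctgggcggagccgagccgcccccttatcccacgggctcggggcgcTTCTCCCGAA
The Sall1 stretch lies in an intron of the GENCODE annotation and runs 3 bases past the RefSeq start. Neither Slc2a5 nor Olfml3, the genes with the largest and smallest macrophage fall with rIL-4 against PBS, held any of the 4 motifs. In the GENCODE M21 annotation of GRCm38, Slc2a5 (ENSMUSG00000028976.10) spans 150119283 to 150144169 on chromosome 4, Olfml3 (ENSMUSG00000027848.12) spans 103722222 to 103738001 on chromosome 3 and Sall1 (ENSMUSG00000031665.7) spans 89027235 to 89044162 on chromosome 8. Of the others, Tmem119 (ENSMUSG00000054675.5) spans 113793729 to 113800516 on chromosome 5, Fcrls (ENSMUSG00000015852.13) 87250758 to 87263738 on chromosome 3 and Sparc (ENSMUSG00000018593.13) 55394500 to 55423183 on chromosome 11. Crybb1 (ENSMUSG00000029343.17) lies at 112255815 to 112269585 on chromosome 5 and Siglech (ENSMUSG00000051504.18) at 55768178 to 55778925 on chromosome 7. Gpr34 (ENSMUSG00000040229.11), at 13632089 to 13640858 on chromosome X, lies inside Cask on the opposite strand without sharing exon bases.

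A wider list held 25 other homeostatic microglia genes. With PBS 18 of them were called higher in microglia than in macrophages, where 24.5% of all genes were. Another 4 were called lower in microglia, as were 2402 of all 14715 genes tested. P2ry6, for example, averaged 165.4 CPM in PBS microglia and 299.5 CPM in PBS macrophages. In microglia with rIL-4 against PBS, 2 of the 25 were called lower and 0 higher, with a median log2 fold change of -0.85, where 0.887% of all genes were called lower. They were P2ry13, a purinergic receptor (log2 fold change -2.20, adjusted p = 0.0136, edgeR), and Cx3cr1 (-2.07, adjusted p = 0.0444). By unadjusted p 15 were below 0.05, against 16.4% of all genes, and DESeq2 called 12, where it called 9.53% of all genes. With rIL-13 against PBS 0 were called by edgeR, 7 had an unadjusted p below 0.05, against 7.76% of all genes, and DESeq2 called 2, where it called 2.54%. The lowest p values belonged to P2ry13 (-1.63, adjusted p = 0.116) and the ribonuclease Rnase4 (0.88, adjusted p = 0.170). In the direct comparison of the cytokines in microglia 0 were called by edgeR or DESeq2 and 2 had an unadjusted p below 0.05, no larger a share than the 11.4% of all genes. These were Ecscr (-0.58, adjusted p = 0.396) and Pros1 (-0.38, adjusted p = 0.438).

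In macrophages with rIL-4 against PBS, 16 of the 25 were called lower and 1 higher, with a median of -1.12, where 7.2% of all genes were called lower. Ecscr, also known from endothelium (log2 fold change -5.28), Cx3cr1 (-4.58), the adhesion receptor Adgrg1 (-3.65), the transcription factor Sall3 (-3.40) and the protease gene Ctsf (-3.22) fell furthest. P2ry13 (-2.54), P2ry12 (-2.04), Lag3 (-2.11), Bhlhe41 (-2.84), Mef2c (-1.73), Golm1 (-1.67), Pros1 (-1.12), Bin1 (-0.95), Entpd1 (-0.86) and Selplg (-0.76) were among the others that fell, and P2ry6 rose (0.46). With rIL-13, 4 of the 25 were called lower in macrophages, against 1.66% of all genes. They were Bhlhe41 (-2.55), Cx3cr1 (-1.93), Mef2c (-0.92) and Golm1 (-0.86). Between the cytokines 2 of the 25, Cx3cr1 (-2.65) and Ecscr (-3.72), were called lower with rIL-4, against 0.22% of all genes. DESeq2 called more of the 25 in macrophages, 9 with rIL-13 against PBS and 10 between the cytokines, where it called 7.55% and 2.63% of all genes, and 18 with rIL-4 against PBS, where it called 16%. The fall with rIL-4 was larger in macrophages than in microglia for Ecscr (difference 4.41, adjusted p = 0.000684, edgeR), Cx3cr1 (2.49, adjusted p = 0.0374) and Adgrg1 (2.48, adjusted p = 0.0479), 3 of 25 against 0.49% of all genes. As a share of the level in microglia of the same mouse, the median of these 25 genes in macrophages was 40.38 to 62.2% with PBS, 29.66 to 72.39% with rIL-13 and 29.16 to 34.95% with rIL-4.

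A list of 25 regulators of microglia identity was read the same way. Of these genes (transcription factors, the TGF-β pathway, and the CSF1 receptor and its ligands), 1 was called in microglia with rIL-4 against PBS, where 2.22% of all genes were called. It was Bhlhe40, a helix-loop-helix repressor, which rose from 82.8 ± 22.9 to 169 ± 10.1 CPM (SD, n = 3; log2 fold change 1.05, adjusted p = 0.0384, edgeR). The median of the list was -0.47 in that comparison. DESeq2 called 4, where it called 9.53% of all genes. With rIL-13 neither tool called any and 4 had an unadjusted p below 0.05, against 7.76% of all genes, with the lowest p values for Bhlhe41 (-1.47, adjusted p = 0.441) and Mef2c (-0.81, adjusted p = 0.595). In macrophages 24 of the 25 could be tested, and 7 were called with rIL-4 and 4 with rIL-13 against PBS, where 14% and 4.19% of all genes were called. DESeq2 called 7 and 5, where it called 16% and 7.55% of all genes. With rIL-4 Smad4 (1.07) and Bhlhe40 (0.98) rose, while Sall3 (-3.40), Bhlhe41 (-2.84), Smad3 (-1.84), Mef2c (-1.73) and Irf8 (-0.59) fell. Bhlhe40 (0.66) also rose with rIL-13, and Bhlhe41 (-2.55), Smad3 (-1.09) and Mef2c (-0.92) fell. Csf1r, Tgfbr1, Mef2a, Mef2c, Sall3 and Bhlhe41 belong to both lists, which therefore share 6 of their 25 genes.

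Markers of other cells moved with the treatments as well. A list of 18 monocyte-derived macrophage genes summed to 3348 to 4521 CPM in PBS microglia, 7545 to 10950 with rIL-13 and 17750 to 27810 with rIL-4, and 4 of its genes were called higher with rIL-4 (Chil3, S100a4, Gda and F10), where 1.33% of all genes were called higher. Most of the summed level was Chil3, a chitinase-like gene induced by IL-4. Leaving Chil3 out, a choice made after its values were seen, the ranges were 3298 to 4270 CPM, 2828 to 5469 CPM and 3840 to 7174 CPM, against 16660 to 27930 CPM over all macrophage libraries. In microglia with rIL-4 against PBS, 14 of the 18 fitted changes were positive (median log2 fold change 0.63). Of the 18, 9 had an unadjusted p below 0.05, against 16.4% of all genes. With rIL-13, 14 were positive (median 0.51) and 6 had an unadjusted p below 0.05, against 7.76% of all genes. There 2 were called, against 0.366% of all genes. Ccr2, the monocyte chemokine receptor, measured 10.3 to 28.3 CPM in PBS microglia and 22.9 to 63.1 CPM in rIL-4 microglia and was not called. The part of monocyte-derived cells in the lower microglia values was not tested.

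Sparc is also made by fibroblasts and vascular cells. The 12 fibroblast and pericyte markers summed to 2651 to 3790 CPM in PBS microglia, 1343 to 8261 CPM with rIL-13 and 257 to 1627 CPM with rIL-4, and 1 of the 12 was called lower with rIL-4 (Rgs5, a pericyte gene, log2 fold change -2.31, adjusted p = 0.0367, edgeR), where 0.887% of all genes were called lower. By unadjusted p 8 of the 12 were below 0.05, against 16.4% of all genes. In macrophages the same list was low but moved with rIL-4 as well, summing to 11.93 to 25.73 CPM with PBS, 15.32 to 20.26 CPM with rIL-13 and 3.002 to 5.148 CPM with rIL-4. There 8 of the 12 could be tested, all 8 had a negative fitted change with rIL-4 against PBS (median log2 fold change -3.125) and 4 were called lower, against 7.2% of all genes. The 10 endothelial markers summed to 1112 to 2347 CPM in PBS microglia and 2384 to 3240 CPM in rIL-4 microglia, with 0 called by edgeR and 4 at an unadjusted p below 0.05, against 16.4% of all genes. In macrophages they summed to 47.13 to 55.79 CPM with PBS, 134.3 to 219.4 CPM with rIL-13 and 205.7 to 430.1 CPM with rIL-4, where 2 of the 10 were called higher and 3 lower than with PBS, against 6.77% and 7.2% of all genes. The median of the 10 fitted changes was -1.58, so the rise of the sum was not shared by the list. The part of these cells in the Sparc values was not tested. Siglech is also expressed by plasmacytoid dendritic cells, whose 5 markers summed to at most 8.668 CPM in any group. The 10 border macrophage markers summed to 221.8 to 398.2 CPM in PBS microglia and to 596.4 to 1164 CPM in rIL-4 microglia. With rIL-4 4 of them were called higher, against 1.33% of all genes, among them Mrc1, which IL-4 can also induce. Only 5 of the 10 fitted changes were positive there (median log2 fold change 0.26). In rIL-13 microglia the markers summed to 584.6 to 913 CPM. There 9 of the 10 fitted changes were positive and 1 was called, against 0.366% of all genes. In macrophages these markers summed to 984.3 to 1637 CPM with PBS, 2501 to 4081 CPM with rIL-13 and 1882 to 3455 CPM with rIL-4. The sum did not reflect the list. With rIL-4 against PBS, 3 of the 9 genes tested were called higher and 3 lower (median log2 fold change -0.80), against 6.77% and 7.2% of all genes. The 8 astrocyte markers in macrophages summed to 23.07 to 29.2 CPM with PBS, 64.34 to 406.5 CPM with rIL-13 and 66.02 to 510.7 CPM with rIL-4. Of the 6 tested, 1 was called higher and 1 lower with rIL-4 against PBS (median log2 fold change -0.06), against 6.77% and 7.2% of all genes. The 8 neutrophil markers in macrophages summed to 686.9 to 1348 CPM with PBS, 404 to 2923 CPM with rIL-13 and 166 to 736.7 CPM with rIL-4, and with rIL-4 against PBS 7 of the 8 fitted changes were negative (median log2 fold change -1.21) and 2 were called lower. The 9 oligodendrocyte markers in macrophages summed to 181.2 to 211.1 CPM with PBS, 133.7 to 147.1 CPM with rIL-13 and 129.4 to 139.6 CPM with rIL-4, and with rIL-4 all 6 of those tested were negative against PBS (median log2 fold change -0.82) and 2 were called lower. The share of all genes called lower there was 7.2%. The part of these cells in the macrophage trace was not tested. In microglia the oligodendrocyte markers summed to 303.6 to 393.5 CPM with PBS, 163.5 to 231.3 CPM with rIL-13 and 307.9 to 346.8 CPM with rIL-4, so that PBS and rIL-13 did not overlap. All 8 tested were negative with rIL-13 against PBS (median log2 fold change -0.55), 0 were called by edgeR and 2 had an unadjusted p below 0.05, against 7.76% of all genes. The part of these cells in the rIL-13 microglia values was not tested. The neutrophil markers in microglia summed to 50.4 to 84.74 CPM with PBS, 19 to 150.1 CPM with rIL-13 and 17.13 to 71.66 CPM with rIL-4, ranges that overlapped. Of the other lists in microglia, 8 astrocyte markers summed to at most 289.8 CPM, 8 neuronal markers to at most 17.58 and 8 lymphocyte markers to at most 16.37.

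**Figure D4:**
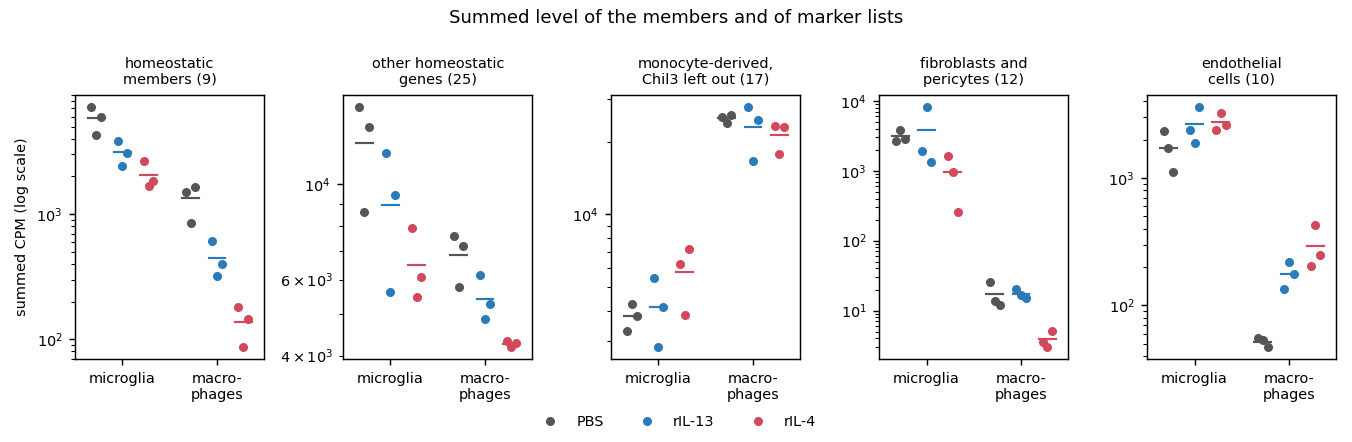
Summed CPM of the 9 homeostatic genes and of 4 marker lists in every library, on log axes that differ between panels. Points are mice, bars are means, colours mark the treatment, and the number of genes is given above each panel. The sums of the 9 homeostatic genes are lower with rIL-4 than with PBS in both cell types, and in microglia their rIL-13 and rIL-4 ranges overlap. The sums of the other homeostatic genes and of the fibroblast and pericyte markers are also lower with rIL-4. Fibroblast and endothelial markers are far higher in microglia than in macrophages.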

How the data were processed

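RNA of sorted microglia and macrophages was amplified (SMART-seq2) and sequenced as 2 × 76 bases. Strand was not kept and no molecular identifiers were used. The authors aligned reads with STAR 2.5.3a to GRCm38 and counted genes with RSEM 1.3.0; the deposited values are expected counts, all whole numbers, read here as counts. The annotation release is not given in the sources used here.

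Genes passing filterByExpr were tested in edgeR 4.0.16 (R 4.3.3) with TMM and the quasi-likelihood F test, adjusted by Benjamini-Hochberg over all genes tested. Treatments were compared over the 9 libraries of a cell type, cell types over the 6 libraries of a treatment, and their difference over all 18. The standard error is the log2 fold change divided by the root of F. Alternatives were DESeq2 1.42.0, its size factors, other filters, other sets of libraries, leaving out each mouse, and the mouse as a block. Both libraries of a mouse share its number, and their deviations from the group means correlated at 0.0651 to 0.3142. No 2 libraries were identical. Exon lengths came from GENCODE M21, which held 50690 of the 53465 gene IDs with their version, the 9 genes included. No transcript of another gene matched theirs above 92.857% identity over 76 bases or more.

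All 9 genes were named in every comparison. In the lists of other homeostatic genes and regulators, called genes were named, otherwise the 2 with the lowest p, and for likeness the 5 best correlated genes with a mean of at least 10 CPM. A called gene that these rules would name is not reported here by name, though the list counts include it. Members and lists were chosen with earlier results of these data known. Mice are the replicates, so SDs and standard errors include variation between mice.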

Additional observations from a re-analysis of the deposited data

Results flagged for a closer look

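The fall with rIL-4 against PBS differed between the cell types for 2 of the 9 genes, by edgeR's test of the difference itself. For Sparc the log2 fold change was -1.10 in microglia and -4.45 in macrophages, a difference of 3.32 (adjusted p = 0.0022). For Fcrls it was -1.28 and -3.76, a difference of 2.46 (adjusted p = 0.0315). Fibroblasts and pericytes also make Sparc, and all 12 of their markers had a negative fitted log2 fold change in microglia with rIL-4 against PBS (median -2.10, 1 called lower, against 0.887% of all genes). In macrophages all 8 of the markers tested were negative too (median -3.125, 4 called lower, against 7.2% of all genes). Their part in the Sparc value was not tested, nor was the part of microglia sorted among the macrophages in either gene.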

How the results depend on the processing

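Of the single-gene fold changes under the alternatives, 1289 kept their direction and side of the threshold, 84 lost a call, 39 gained a call and 5 changed sign. The sign changes were Sall1 in microglia with rIL-13 against PBS (0.06, 0.28 and 0.35 without mouse 1, 3 or 6, in a range of -0.38 to 0.35), Siglech in microglia with rIL-4 against rIL-13 (0.029 without mouse 5, range -1.20 to 0.029) and the difference between cell types for Crybb1 with rIL-13 (0.25 without mouse 6, range -0.99 to 0.25); the cause was not tested. Counts of the 9 genes called, leaving out each mouse in turn, ranged from 0 to 5 for microglia with rIL-4 against PBS (5 with all libraries), from 1 to 5 for macrophages with rIL-13 against PBS (4), from 0 to 4 for macrophages with rIL-4 against rIL-13 (4), from 1 to 8 for microglia against macrophages with rIL-13 (8), from 1 to 3 for the difference between cell types in rIL-4 against PBS (2), and from 0 to 1 for that in rIL-4 against rIL-13 (0, and 1 without mouse 2). DESeq2 gave 3 for microglia with rIL-13 against PBS and 2 for microglia with rIL-4 against rIL-13 (0 in edgeR for each), 8 for macrophages with rIL-4 against rIL-13, and 4 and 2 for the differences between cell types in rIL-4 against PBS and against rIL-13. Testing all genes with any count gave 8 for macrophages with rIL-4 against rIL-13 and 1 for the difference between cell types in that contrast, and using only the 6 libraries compared gave 2 for the former. The share of all genes called is not given for these fits or for the DESeq2 count of 4. Those counts therefore describe the settings and are no result particular to the 9 genes. With the mouse as a replicate block the differences between cell types gave 5 (rIL-4 against PBS) and 2 (rIL-4 against rIL-13), and the block changed no other count by over 1.5 times. The median trace was 20.1% with PBS, 18.4% with rIL-13 and 5.05% with rIL-4, and on library totals without TMM it was 16.6% with PBS, 13.5% and 4.50%. The 3 mice per group and, for Crybb1 and Slc2a5 in rIL-4 macrophages, counts under 20 limit the precision.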
